A study of Mus musculus with 4 samples.

Results

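Across the genome of fetal immature γδ thymocytes of the mouse, 78650 open chromatin regions were called in all 4 ATAC-seq libraries, and 11644 of them (14.8%) lay crowded together in 675 dense stretches of 100 kb. The members were chosen by merging the authors' peaks that overlapped by 1 bp or more on chromosomes 1 to 19 and X. Only the merged regions with a peak in every library were kept, and they were placed by their midpoint in fixed bins of 100 kb. Bins holding 15 or more such shared regions were called dense, and the shared regions in them are the members. The crowding itself is therefore a description. ATAC-seq uses Tn5 transposase to cut and tag accessible DNA, here by the Omni-ATAC protocol. The 2 KO libraries came from Maf fl/fl Il7r-Cre fetuses and the 2 WT libraries from Maf+/+ Il7r-Cre fetuses, so both genotypes carried the Cre. Cre driven by Il7r deletes floxed Maf, the gene of the transcription factor c-Maf, in lymphoid precursors and not in these cells alone. The strain of both genotypes was C57Bl/6, backcrossed for 5 generations (N5). Each library was made from 15 to 17 (in units of 1000 cells) CD4- CD8- TCRγδ+ CD3ε+ CD24+ CD45RBlo thymocytes, sorted from pooled fetuses of embryonic day 17 to 18. Nothing in the labels tells separate litters or pools apart, and p-values here measure only a spread that could be technical. The design asked how accessibility differs in thymocytes without c-Maf at the immature stage of the γδ cells that later make IL-17.

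Open regions mark promoters, enhancers and insulators, where transcription factors displace nucleosomes. They crowd together where many genes start close to each other, and also over single genes that carry long arrays of enhancers, as genes that define a cell type often do. In thymocytes, such enhancer arrays are known at genes of the T cell receptor complex and at genes of lineage factors such as Tcf7 and Runx1.

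Promoters that lie in dense bins are shown here for 2 genes of T cell receptor signalling, for the T cell factor gene Tcf7, and for 2 histone genes that return below with genotype differences. Each runs from 250 bases before to 50 after an annotated transcript start, 5′ to 3′, from RefSeq on GRCm38.p6, and the capitals mark the bases inside the member region. The Zap70 promoter lies at chr1:36761548-36761847 on the plus strand and Cd247 at chr1:165788431-165788730 on the plus strand. Tcf7 lies at chr11:52282546-52282845 on the minus strand, with all 300 bases open. H2bc9 lies at chr13:23543395-23543694 on the minus strand and H4c11 at chr13:21734784-21735083 on the plus strand.
Zap70: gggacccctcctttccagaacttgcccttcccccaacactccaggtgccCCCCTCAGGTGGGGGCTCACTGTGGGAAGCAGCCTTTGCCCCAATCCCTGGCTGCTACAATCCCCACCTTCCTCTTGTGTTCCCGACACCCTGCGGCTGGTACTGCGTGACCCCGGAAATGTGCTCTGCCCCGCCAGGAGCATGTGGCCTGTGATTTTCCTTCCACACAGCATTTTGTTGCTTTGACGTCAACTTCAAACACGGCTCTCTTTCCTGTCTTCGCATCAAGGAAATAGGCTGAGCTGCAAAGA
Cd247: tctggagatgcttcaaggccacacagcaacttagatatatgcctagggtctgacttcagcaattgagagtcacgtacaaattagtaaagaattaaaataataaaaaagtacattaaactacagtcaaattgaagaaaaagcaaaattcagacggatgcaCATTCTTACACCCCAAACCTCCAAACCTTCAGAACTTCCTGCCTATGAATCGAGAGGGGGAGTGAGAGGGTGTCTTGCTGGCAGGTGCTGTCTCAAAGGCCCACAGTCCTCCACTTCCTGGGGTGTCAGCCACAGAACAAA
Tcf7: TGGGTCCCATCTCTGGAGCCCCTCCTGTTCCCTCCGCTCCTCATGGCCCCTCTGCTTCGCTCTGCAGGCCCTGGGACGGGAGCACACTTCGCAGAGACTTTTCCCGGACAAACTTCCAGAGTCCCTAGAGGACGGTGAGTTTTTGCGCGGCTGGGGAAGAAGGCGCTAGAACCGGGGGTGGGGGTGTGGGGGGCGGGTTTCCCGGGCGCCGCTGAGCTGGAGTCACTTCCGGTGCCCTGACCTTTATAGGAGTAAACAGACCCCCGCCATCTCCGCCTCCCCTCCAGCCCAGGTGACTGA
H2bc9: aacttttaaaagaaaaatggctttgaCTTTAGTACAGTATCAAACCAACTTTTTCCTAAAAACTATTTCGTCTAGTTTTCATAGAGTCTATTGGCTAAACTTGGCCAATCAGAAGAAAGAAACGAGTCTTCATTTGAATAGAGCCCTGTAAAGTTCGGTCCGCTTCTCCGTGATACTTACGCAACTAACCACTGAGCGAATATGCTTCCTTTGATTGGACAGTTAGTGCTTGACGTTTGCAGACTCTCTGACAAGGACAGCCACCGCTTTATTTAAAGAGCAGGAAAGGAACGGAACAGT
H4c11: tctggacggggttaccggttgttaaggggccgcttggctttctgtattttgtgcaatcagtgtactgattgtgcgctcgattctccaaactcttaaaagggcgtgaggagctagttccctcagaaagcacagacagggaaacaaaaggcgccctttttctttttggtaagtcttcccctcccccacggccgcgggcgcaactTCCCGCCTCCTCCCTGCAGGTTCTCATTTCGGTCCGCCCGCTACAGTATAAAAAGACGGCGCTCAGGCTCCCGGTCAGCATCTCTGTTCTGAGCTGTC

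The Tcf7 promoter holds the core of an ETS site, CGGAAG, read on both strands. The H4c11 promoter holds a MAF recognition core, TGCTGAC, and part of a CTCF motif, AGGNGGC, while the other 3 held none of the 7 motifs searched. Outside chromosome 18, 1574 of 32619 promoters overlapped a member. CGGAAG stood in 30.1% of them, in 33.2% of the promoters at other shared regions and in 17.0% of all promoters. TGCTGAC stood in 3.37%, 3.64% and 4.71% of the same groups, and AGGNGGC in 42.2%, 41.9% and 29.4%. The RUNX core TGTGGT stood in 12.9% of member promoters, 12.7% of promoters at other shared regions and 16.6% of all promoters. The TCF/LEF core CTTTGAA stood in 3.05%, 3.40% and 5.13% of the same groups. The GATA core AGATAA stood in 5.84%, 5.56% and 11.2%. The AP-1 site TGANTCA stood in 4.83%, 4.53% and 7.84%. For these 4 motifs the member promoters were close to those at other shared regions. An AP-1 match can share bases with the MAF core. A match describes the letters and does not show binding.

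The targeted gene separated the genotypes, although Maf itself lies in no dense bin: its 100 kb bin on chromosome 8 held 4 shared regions. Within Maf, from 115703253 to 115706894, the tallest peak had a −log10 q of 3.17 in KO 1 and 3.06 in KO 2, against 15.0 in WT 1 and 15.9 in WT 2. The authors' q-value states how far a summit stood above its local background within 1 library. All 7 T cell markers (Cd3e, Cd3d, Cd3g, Cd247, Lck, Thy1 and Trdc) had a peak at a gene end in every library and overlapped a dense bin. Peaks at gene ends were present for 4 and 5 of 7 B cell markers in the KO libraries and 4 and 5 in the WT libraries, and for 4 and 5 against 4 and 5 of 9 stromal markers. For 8 myeloid markers the counts were 3 and 2 in KO against 1 and 3 in WT, and for 6 erythroid markers 3 and 2 against 1 and 2, and their part in any genotype difference was not tested. No library had a peak at a gene end of Pax5, Csf1r, Lyz2, Mpo, Elane, Csf3r, Gata1, Alas2, Krt5, Col1a2, Pdgfra or Pecam1. The lists held 130935 and 120141 peaks in KO and 102718 and 132179 in WT, so WT 1 was the shortest list. The background pileup implied by the authors' fold and p-value of each peak was most often 0.88 and 0.76 in KO and 1.57 and 1.38 in WT, so the genotypes differed in background depth without overlap, and its part in the genotype results below was not tested.

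Dense bins were the upper end of a smooth distribution, and most were only moderately crowded. The dense bins held 15 to 48 with a median of 17, and the other 13541 bins with at least 1 shared region had a median of 4. Bins with none are left out of these comparisons. There were 179 bins with exactly 15 shared regions, such as those led by Ankrd44, Icos and Zcchc2, and 236 just outside with 14, such as those led by Tmem131, Cnot11 and Ptma. Bins of both kinds held a median of 3 protein-coding genes. Bins with 20 or more numbered 106, and 7 held 25 or more.

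**Figure D1:**
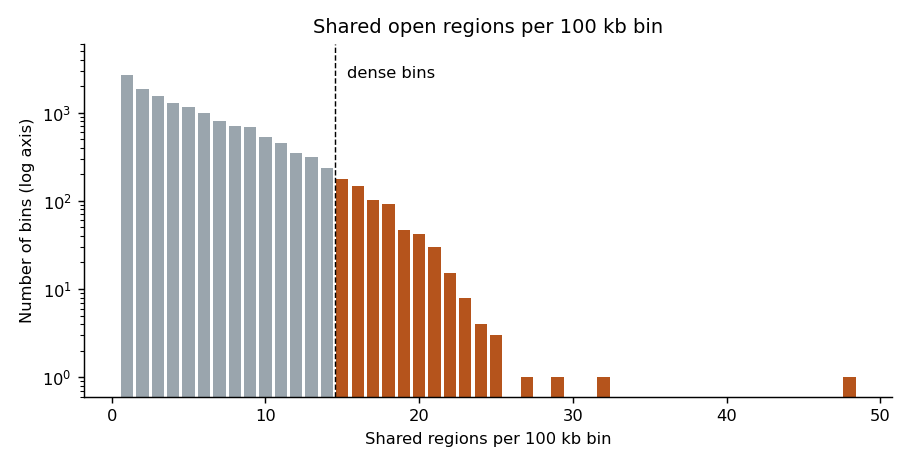
Number of 100 kb bins (vertical, log axis) by the number of shared open regions they hold (horizontal), with dense bins in orange and other bins in grey. Counts fall steadily past the limit of 15, and 1 bin with 48 regions stands apart.

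Genes were denser in these bins. A dense bin overlapped a median of 3 protein-coding genes, against 1 in the other bins with a shared region. Of the dense bins, 181 overlapped 5 or more protein-coding genes, 287 overlapped 2 to 4, 177 overlapped exactly 1 and 30 overlapped none. In the bins with 5 or more genes, 50.02% of members lay within 1 kb of a gene end. The share was 13.4% in the bins with 1 gene. Over all members 29.6% lay within 1 kb of an end of a gene of any kind, against 26.5% of the other shared regions. Members that held an annotated transcript start were a smaller share, 10.7% against 12.9%. Only 15.3% of members lay over 10 kb from any protein-coding gene, V segment or antigen receptor constant gene, against 24.2% of other shared regions. Members were about as wide as the others (median 270 and 274 bp), with a median of 1535 bp to the next shared region against 4117 bp.

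Chromosome 11 held 76 dense bins, which is 9.20% of its bins that hold a shared region and 21.9% of its shared regions, and chromosome 7 held 57 (7.35% of such bins). Chromosome 18 held 13 (2.56%), chromosome 12 held 18 (2.75%) and the X chromosome none among its 474 bins with a shared region. Most dense bins stood alone (443), and 98 runs joined between 2 and 6 neighbours. The longest run, 6 bins on chromosome 14 from 52800001 to 53400000 with 112 members, lay over V segments of the T cell receptor α and δ chains. A run of 5 bins on chromosome 10 from 81100001 to 81600000 held 97 members among 32 protein-coding genes, including Eef2, Zbtb7a and Nfic. Another run of 4 bins on chromosome 17 from 33900001 to 34300000 held 76 members over the major histocompatibility genes H2-K1, Tap1, Tap2, Psmb8 and Psmb9, whose products prepare and present peptides.

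The 20 most crowded bins included tandem genes, single long genes and gene-dense stretches, besides a first bin of another kind. That bin, the most crowded of all, on chromosome 9 from 3000001 to 3100000, overlapped no protein-coding gene. Its 48 members were packed into the stretch from 3000521 to 3037920, at the start of the assembled chromosome. Their median fold enrichment was low, 4.67 and 4.33 in KO and 4.72 and 4.01 in WT, against library medians of 9.75 and 11.16 in KO and 7.34 and 10.51 in WT. Their median −log10 q was high, 180.0 and 105.8 in KO and 193.2 and 147.1 in WT. Their mean height percentile was 91.7 and 82.1 in KO and 94.9 and 85.9 in WT, where 100 is the tallest shared region by −log10 q. How the authors placed reads that match several sites is not stated in the material at hand. The repeat content of this stretch was not checked, so its peaks may not reflect open chromatin. The bin held 0 KO-only and 0 WT-only regions, as defined below.

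Histone genes formed the next bin, with 32 members on chromosome 13 from 23500001 to 23600000. It holds 14 genes of the replication-type histones, which package newly made DNA, and 13 tRNA genes. In all, 51 of 68 such histone genes lay in 5 dense bins. The 50 members that overlapped a histone gene were tall: their mean percentile of −log10 q among all shared regions was 82.4 and 80.5 in KO and 81.9 and 80.1 in WT. Histone genes are near-copies of each other, so reads may be split between them. Of 408 tRNA genes, 139 lay in 22 dense bins. The 89 members on tRNA genes had mean percentiles of 50.1 and 47.8 in KO, against 53.3 and 54.6 in WT, and the groups did not overlap. Both KO ranks were below both WT ranks at 26 of them (29.2%) and above at 5 (5.62%). All shared regions gave 20.6% and 21.1%, and all members 24.0% and 17.5%. Only 8.62% of protein-coding genes had their midpoint in a dense bin, as did 4.03% of snoRNA genes and 5.77% of lncRNA genes.

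Tandem ribosomal RNA genes lay on chromosome 8 from 123500001 to 123600000, where 23 members stood among 33 annotated genes of 5S rRNA beside Gas8. WT 1 called 24 peaks in this bin, against 38 and 37 in the KO libraries and 37 in WT 2. The mean percentile of its members was 35.7 and 24.8 in KO, against 18.7 and 20.8 in WT, so the groups did not overlap. Both KO means likewise lay above both WT means in 10.4% of dense bins and 19.9% of all bins with 5 or more shared regions. KO 1 was the high library. In the neighbouring bin of the array, with 12 rRNA genes and 16 members, the values were 33.4 and 24.98 in KO against 21.9 and 28.04 in WT, and the groups overlapped. The copies are near-identical, so their separate values are uncertain.

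Single long genes led several of the top bins. All 29 members of the bin on chromosome 7 from 73500001 lay nearest to Chd2, a chromatin remodeller gene. All 25 of a bin on chromosome 2 lay nearest to Rapgef1 and all 24 of a bin on chromosome 3 to Rapgef2, both exchange factors for Rap GTPases. All 23 of a bin on chromosome 8 lay nearest to Ankrd11. In 136 dense bins every member was assigned to 1 gene. Further top bins were led by Cxxc5 with 25 members, Irf2bpl with 24, Glb1 with 22, which also holds the chemokine receptor gene Ccr4, and Ccr9 with 23. Ccr9 encodes the receptor for the thymic chemokine CCL25. Its bin on chromosome 9 from 123700001 to 123800000 had a tallest member at 123754368 to 123754774, with a −log10 q of 136.7 and 151.4 in KO and 138.1 and 223.2 in WT. Gene-dense bins made up the rest: Kcnn1 with 27 members and the interleukin receptor gene Il12rb1, Cic with 25, Slc29a1 with 24, Tspan4 with 24, and Ctc1, Mob3a, Pdzd7, Mast1 and Zfr2 with 23 each.

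**Figure D2:**
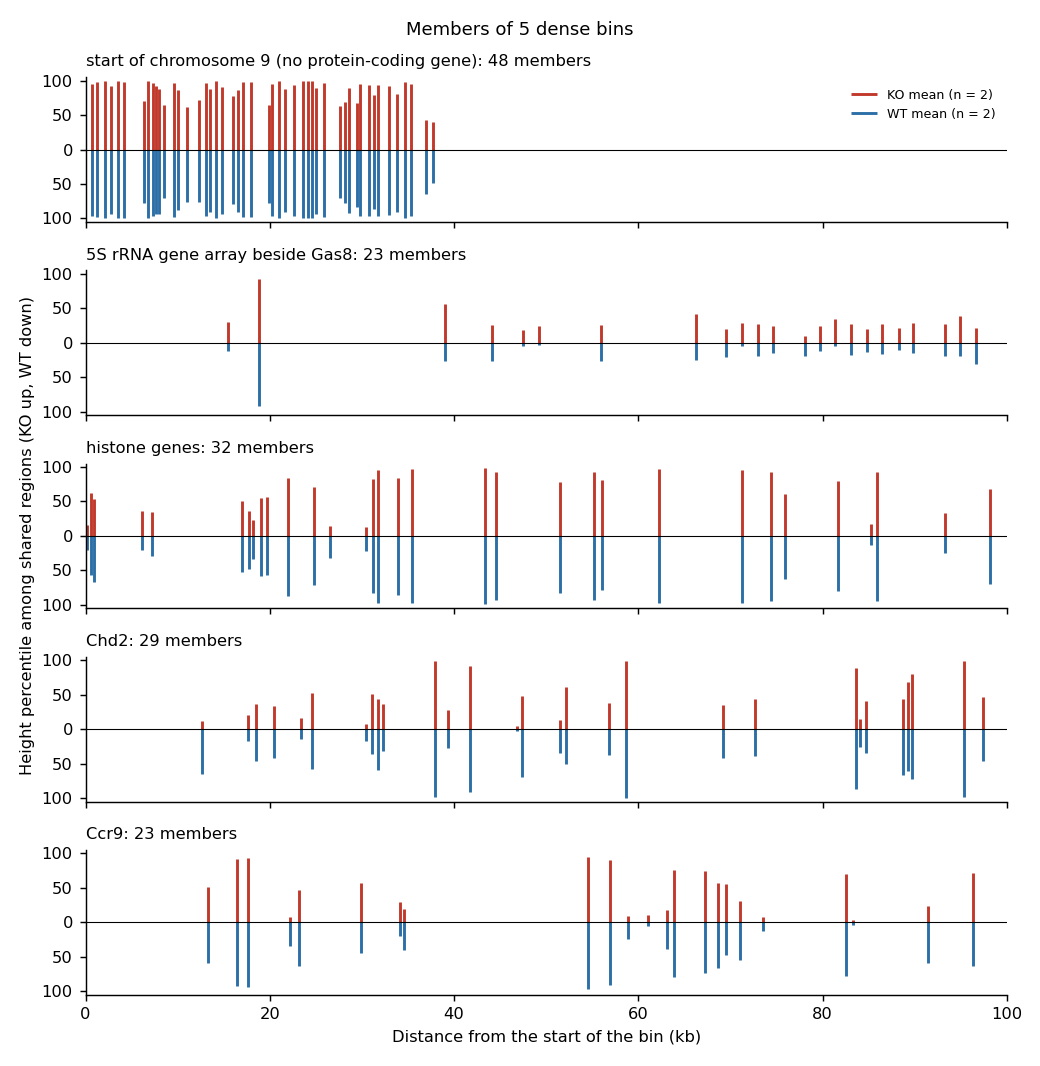
Members of 5 of the 20 most crowded bins by distance from the bin's start (kb, horizontal), with the mean height percentile of the 2 KO libraries drawn up in red and of the 2 WT libraries drawn down in blue. The 48 regions at the start of chromosome 9 fill less than 40 kb and are tall in both genotypes, the 23 of the 5S array are mostly low, and the 29 of Chd2 spread over the bin at mixed heights.

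By gene, Zmiz1, a coactivator gene that acts with Notch in thymocytes, had the most members, 43 of its 57 shared regions. The autophagy gene Atg7 and the cytoskeletal gene Septin9 had 33 each. Runx1, Irf2bp2, St8sia1 and Chst11 had 31 each, Gse1 and Chd2 29 each, and the inositol kinase gene Itpkb 28. Irf2bp2 is the shortest of these, at 5.69 kb. Members were assigned to 2249 genes, 349 of which had 10 or more.

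T cell genes were common among them. Of 40 genes in a list of T cell identity and signalling, 25 (62.5%) overlapped a dense bin, as did 24 of 60 lymphoid transcription factors and 15 of 37 cytokine and chemokine receptors. Only 5 of 30 genes of the γδ type 17 program did (Sox13, Trdc, Trgc2, Trgc4 and Itgae), and among those that did not were Il17a, Il17f, Il23r, Rora, Zbtb16 and Blk. Of 25 housekeeping genes 6 overlapped one, and of all 21631 protein-coding genes 10.3%. The T cell and transcription factor lists hold longer genes, with median lengths of 35.0 and 55.1 kb against 17.3 kb over all protein-coding genes, and the part of length was not tested. Within the T cell list, Cd247, the ζ chain of the T cell receptor complex, and Prkch, a protein kinase C gene, had 20 members each. Fyn, Cd69 and Rhoh had 16 each, Lcp2 and Ptprc 15, Cd5 11, Cd3e and Thy1 9, and Zap70, Icos and Ubash3a 8. Cd6 and Ctla4 had 7, Cd27 and Ptpn22 6, Cd48 and Sit1 5, and Cd3d, Lck, Ly9 and Ptpn6 4. Among transcription factors, Runx1 had 31, Nfkb1 24, Nfatc2 20, Fli1 19, Sox13 18, and Tcf7, Lef1 and Mbnl1 17 each. Runx3 and Tox had 16 each, Myb and Nfatc1 15, Ikzf1 14, Ikzf3 and Stat5b 13, Irf4 12 and Id3 10. Among receptors, Tgfbr2 had 19, Ifngr1 16, Ccr7 and Tnfrsf1b 15, Ccr9 and Il2ra 13, and Tnfrsf9 11.

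By the rank of −log10 q, members were close to the other shared regions in height, and by fold they were lower. Their mean percentile was 50.01 against 49.9986 for the others in KO 1, 50.12 against 49.978 in KO 2, 52.4 against 49.6 in WT 1 and 50.8 against 49.9 in WT 2, so WT 1 was set furthest apart. Among the shared regions 8.004% of members, against 7.87% of the others, were in the top 10% by −log10 q in every library. Median fold enrichment was lower for members than for other shared regions in all 4 libraries: 8.53 against 10.1 in KO 1, 9.56 against 11.4 in KO 2, 7.001 against 7.39 in WT 1 and 8.98 against 10.9 in WT 2. The background pileup implied by the authors' values was higher for members, at medians of 2.33 against 1.37 in KO 1, 2.53 against 1.36 in KO 2, 2.91 against 1.99 in WT 1 and 3.896 against 2.17 in WT 2. That measure used peaks with a fold of 5 or more and a −log10 p under 250. Fold and q are both relative to this background, whose part in the heights of members was not tested.

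Between genotypes, the dense bins took a like share of all peaks. The share was 12.2% and 12.8% in KO, against 13.9% and 12.2% in WT, so the groups overlapped. The means were 12.5 ± 0.429% and 13.1 ± 1.19% (SD, n = 2 each), a difference of −0.616 percentage points (2-sided exact permutation p = 0.667, where 2 libraries against 2 cannot give less than 0.33). Without WT 1 the difference turned to +0.319.

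Few regions in dense bins belonged to 1 genotype. Of 15537 regions in them called in at least 2 libraries, 451 (2.90%, exact 95% interval 2.64 to 3.18%) were KO-only, called in both KO libraries and neither WT library. The share over all such regions was 4.34%. WT-only regions numbered 385 (2.48%, interval 2.24 to 2.73%), against 2.89% over all. With the same number of top peaks taken from each library, 2.16% were KO-only and 3.31% WT-only, the opposite order. The intervals cover counting error only. Since dense bins were chosen for regions called in all 4 libraries, the share of every other pattern is bound to be lower there. Pairs that mix the genotypes gave shares on either side: 2.80% for KO 1 with WT 2 alone and 2.93% for KO 2 with WT 2, but 0.824% for KO 1 with WT 1 and 0.663% for KO 2 with WT 1. KO-only regions fell in 323 dense bins and WT-only regions in 293, with both kinds in 135 and neither in 194.

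**Figure D3:**
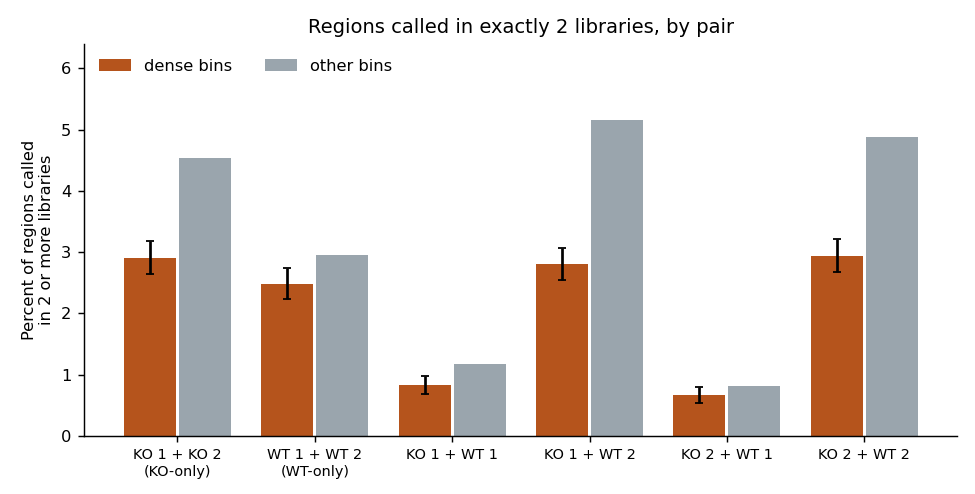
Share of regions called in exactly 2 libraries (percent of regions called in 2 or more, vertical) for each pair of libraries, in dense bins (orange, with exact 95% intervals) and other bins (grey). In dense bins the KO-only share, 2.90%, lies beside the 2.93% of KO 2 with WT 2, and the WT-only share of 2.48% lies above both mixed pairs that hold WT 1.

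Regions called in 2 libraries alone were narrow whatever the pair. Median widths were 142 bp for KO-only and 148 bp for WT-only regions, 121.5 to 148 bp for the pairs that mix the genotypes, and 270 bp for members. Ranked within their own lists, 2 KO-only regions and 25 WT-only regions were above the middle in both libraries, and 2 WT-only regions were in the top 25%. By the lower of the 2 within-library ranks, tall KO-only regions lay inside Fli1, an ETS factor gene, with a −log10 q of 24.8 in KO 1 and 13.9 in KO 2, and inside Gigyf1 (8.27 and 12.9), Nod2 (8.08 and 11.2), Osbpl3 (12.7 and 10.4) and Znrf1 (7.47 and 10.2), and near Zfp36l2 (8.53 and 12.1) and Lif (7.38 and 12.9). By the same measure the tallest WT-only region lay inside Hc, the gene of complement C5, on chromosome 2 from 34989005 to 34989302. Its −log10 q was 48.7 in WT 1 and 78.6 in WT 2, its fold 18.4 and 22.9, and no KO peak touched it. The next were inside Dhx37 (30.4 and 53.3), Arhgap25 (23.1 and 62.7), Slc43a2 (22.4 and 57.2) and Tgfbr2 (22.2 and 38.9), a receptor gene for TGFβ. A WT-only region 79510 bp from Rasgrp1, the nearest protein-coding gene, followed on chromosome 2 from 117422387 to 117422597 (18.1 and 48.8), then those near Mfsd5 (17.0 and 37.4) and Rbm17 (15.7 and 28.2).

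Heights of members were compared by rank, since each library was ranked over the same 78650 shared regions. The mean percentile of the members was 50.01 and 50.12 in KO, against 52.4 and 50.8 in WT. Both KO libraries lay below both WT libraries. The means were 50.1 ± 0.0824 and 51.6 ± 1.13 (SD, n = 2 each), a difference of −1.54 percentile points. The 2-sided exact permutation p was 0.33, the smallest possible, and the difference was −0.780 without WT 1. Members were chosen by peak calls, and heights are the −log10 q of the same peaks. This difference and the shares that follow are therefore not independent of the rule. Without WT 1, the shortest list, the rule gave 1095 dense bins in place of 675. The part of the rule in these differences was not tested. A lower rank in such pooled cells can mean fewer cells with the region open or a less open region in each cell, which cannot be told apart. Both KO ranks were above both WT ranks at 2036 members (17.5%), against 21.1% of all shared regions. Both KO ranks were below at 2793 members (24.0%), against 20.6%. By bin, both KO means lay above both WT means in 70 of 675 dense bins (10.4%), against 19.9% of all 6885 bins with 5 or more shared regions, and below in 257 (38.1%), against 25.5%. A dense bin's mean is over 15 to 48 regions, and that of the other bins over 5 to 14. The shares by bin are therefore not fully comparable, and the part of region number was not tested. With height taken from fold enrichment the bins above were 6.07%, against 16.5% of all bins, and those below 22.8%, against 20.6%. No dense bin passed a limma test of bin means in either direction at an adjusted p under 0.05, where 0.0290% of all bins were called higher and 0.218% lower in KO. At an unadjusted p under 0.05, 11 dense bins were higher and 36 lower, and a fit with the replicate number as a block called 4 and 3. The smallest p belonged to a V segment bin on chromosome 14 from 52900001 to 53000000, with mean percentiles of 69.2 and 65.4 in KO against 58.7 and 58.3 in WT (adjusted p = 0.118, limma).

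For single members, limma on normal scores of the ranks with an intensity trend, adjusted over all shared regions, called 34 higher in KO and 150 lower. This was 0.292% and 1.29% of members, against 0.679% and 1.27% of all shared regions, so the lower calls were at the background. These calls rested on the trend: without it limma called 0 in each direction, with 399 members higher and 720 lower at an unadjusted p under 0.05. Without KO 2 they were 0 and 3, without KO 1 2 and 54, and without WT 2 50 and 66. The replicate block gave 64 and 210. The differences below are KO minus WT on the normal score scale, each from 2 libraries a genotype, and every member named kept a peak in all 4 libraries.

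Members called lower in KO included regions inside genes of T cell receptor signalling. In Cd247, the member on chromosome 1 from 165801981 to 165802379 had a −log10 q of 4.36 and 8.81 in KO, against 22.3 and 66.9 in WT. Its percentiles were 7.26 and 16.03 in KO against 65.8 and 76.7 in WT, a difference of −1.79 (SE 0.308, adjusted p = 0.00019, limma). A second member of Cd247, from 165863357 to 165864280, was lower as well (−1.26, adjusted p = 0.00499, limma). In Zap70, the gene of the kinase recruited by the phosphorylated ζ chain, a member from 36779400 to 36779883 had 10.1 and 5.77 in KO, against 22.0 and 61.4 in WT (−1.56, SE 0.301, adjusted p = 0.00104, limma). The promoter of Zap70 printed above was not among the calls, with percentiles of 82.2 and 81.9 in KO and 89.9 and 88.1 in WT.

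Across the 236 members of the T cell list, 7 members were called lower, among them 2 in Cd247 and 1 each at Fyn, Zap70, Rhoh and Ptpn22, and 2 higher, both in Prkch. Over all shared regions 1.27% were called lower and 0.679% higher. Both KO ranks lay below both WT ranks at 73 of them (30.9%) and above at 33 (13.98%), where all shared regions gave 20.6% and 21.1%. Transcription factor genes had 9 lower calls among 326 members: 2 each in Runx1, Ikzf3 and Nfatc2, and 1 each in Sox13, Tox and Stat5b. Their 1 higher call lay 53049 bp from Mbnl1. Of the 326, 90 (27.6%) were below and 54 (16.6%) above. In Ikzf3, the gene of Aiolos, 8 of 13 members were below and 1 above. In Runx1 15 of 31 were below and 4 above, and in Nfatc2 7 of 20 and 3. These genes were picked out for their calls. Among all 457 genes with 8 or more members, the median share was 23.5% below and 15.4% above. In 25 of these genes 50% or more of members were below, and in 5 genes 50% or more were above. The Sox13 member, from 133412560 to 133412885 on chromosome 1, had percentiles of 52.8 and 27.6 in KO against 81.0 and 79.7 in WT (−1.12, adjusted p = 0.000347, limma); Sox13 is a factor of the γδ type 17 lineage and stands in both lists. Receptor genes had 3 lower calls, 2 near Ifngr1 and 1 near Il12rb1, and none higher, with 37 of 148 members (25%) below and 35 (23.6%) above, beside the same 20.6% and 21.1%. At Ccr7, picked out for its values, 8 of 15 members were above and 0 below, none of them called. The housekeeping list had no calls, with 15 of its 38 members below and 4 above, which is 39.5% below, beside 30.9% in the T cell list; the difference between lists was not tested.

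**Figure D4:**
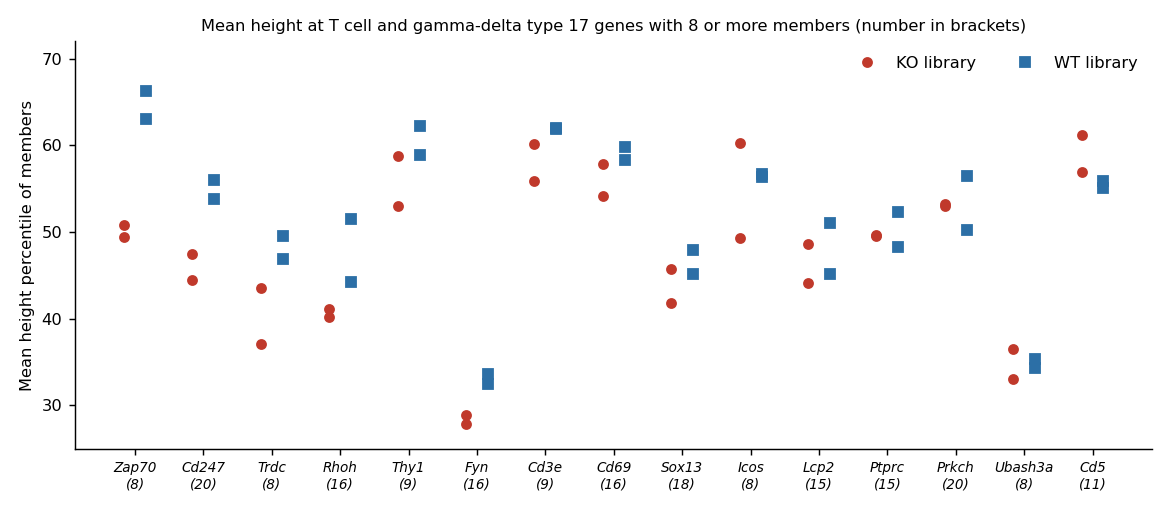
Mean height percentile of the members (vertical) at 15 genes of the T cell and γδ type 17 lists with 8 or more members, for each KO library (red circles, left) and WT library (blue squares, right), ordered by the difference of means. Both KO values lie below both WT values at 8 genes, led by Zap70 and Cd247, above them at Cd5 alone, and the genotypes overlap at the other 6. Over all dense bins, both KO means lie below both WT means in 38.1% and above them in 10.4%. The same share over all genes was not counted, so the 8 genes are not set apart from other genes.

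By size of difference, the 10 lowest members in KO lay at Slc16a10, Tspan14, Pan3, Cytip, Dgkg, Inafm2, A630001G21Rik, Rreb1, Pithd1 and Pik3ap1. In Slc16a10, an amino acid transporter gene, the member on chromosome 10 from 40108050 to 40108253 had a −log10 q of 2.09 and 4.22 in KO, against 18.7 and 47.7 in WT (−2.58, SE 0.445, adjusted p = 0.000198, limma). In Tspan14, a tetraspanin gene, the values were 4.05 and 2.69 in KO and 25.7 and 52.8 in WT (−2.58, adjusted p = 5.79e-05, limma). In Pan3, a gene of messenger RNA deadenylation, they were 3.81 and 4.39 in KO and 27.5 and 54.2 in WT. All 10 had KO percentiles under 8.0 and did not overlap with WT, and 21 of the 150 lower calls were under the 10th percentile in both KO libraries. Only 19 of the 150 (12.7%) lay within 1 kb of a gene end, against 12 of 34 higher calls (35.3%) and 29.6% of all members.

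Several lower calls stood together. A bin on chromosome 2 from 117400001 to 117500000 had 4 lower members between 117412128 and 117439009, 69251 to 95658 bp from Rasgrp1, the nearest protein-coding gene, whose product activates Ras behind the T cell receptor. The WT-only region named above lies among them. The mean percentile of its 15 members was 56.8 and 56.4 in KO, against 67.0 and 62.5 in WT. Znrf1 had 3 lower members and also a KO-only region.

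The 10 members highest in KO by difference lay at Tnfrsf14, Fcgrt, Bmp2k, Cdc20b, Prkch, Gpr153, Ptgr2, Prex1, Mbnl1 and Tspan9. The Tnfrsf14 member, 13991 bp from this receptor gene on chromosome 4 from 154942611 to 154942951, had a −log10 q of 33.0 and 18.6 in KO, against 2.36 and 4.68 in WT (1.97, SE 0.430, adjusted p = 0.00457, limma). In Prkch, the member on chromosome 12 from 73647570 to 73648072 had 35.6 and 41.8 in KO and 8.15 and 15.0 in WT (1.01, SE 0.232, adjusted p = 0.00857, limma). Without KO 2 none of the higher calls passed.

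**Figure D5:**
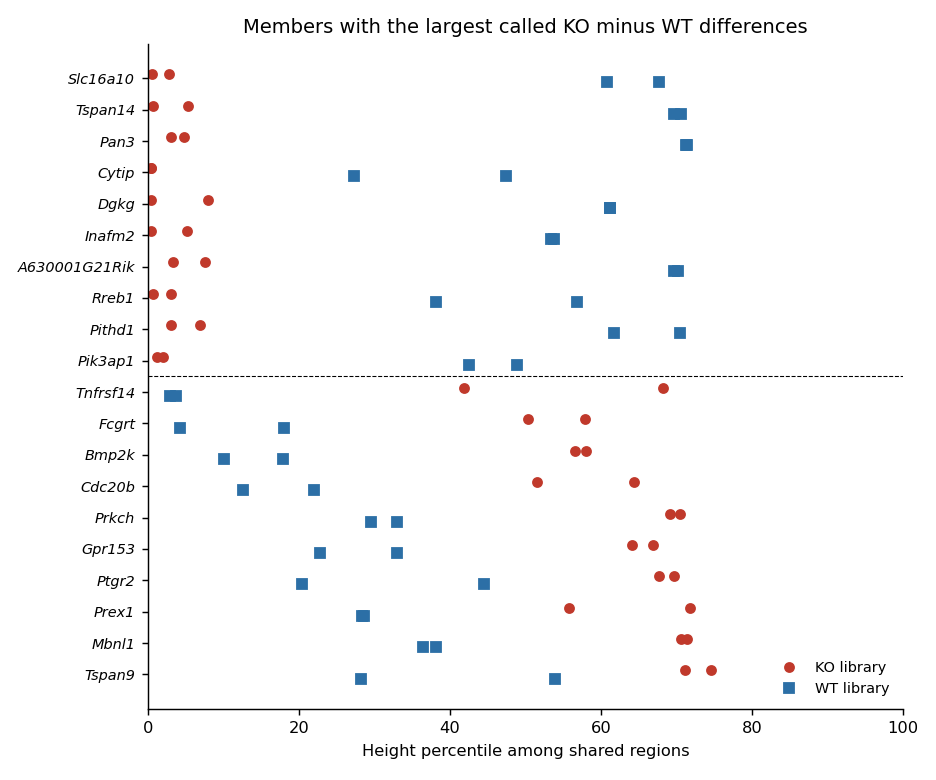
Height percentile (horizontal) of the 10 members with the largest lower and the 10 with the largest higher calls in KO, named by nearest gene, for each KO library (red circles) and WT library (blue squares). Above the dashed line all KO values lie under 8.0, and below it the KO values lie between 41.9 and 74.5, each right of both WT values of its row.

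Histone and V segment members were called in both directions. The member at the H4c11 promoter had a −log10 q of 124.9 and 133.6 in KO, against 58.6 and 92.0 in WT, and was called higher (0.46, SE 0.109, adjusted p = 0.0107, limma). The member at the H2bc9 promoter had 218.5 and 278.6 in KO, against 265.5 and 405.0 in WT, and was called lower (−0.30, SE 0.0859, adjusted p = 0.0497, limma). Of 86 members on V segments, 32 (37.2%) had both KO ranks above both WT ranks and 15 (17.4%) below, beside 21.1% and 20.6% of all shared regions, with 3 higher and 2 lower calls. Of the 50 histone members, 6 were above and 18 below, with 2 higher calls and 1 lower. V segments are near-copies of each other, so these values are uncertain, as are those of the histone genes. At the constant region of the δ chain, Trdc, the 8 members had mean percentiles of 43.6 and 37.0 in KO, against 49.6 and 46.9 in WT, and none was called. At Trgc4, a γ chain constant gene, the 4 members had 32.5 and 25.03 in KO and 46.4 and 41.1 in WT, with none called.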

How the data were processed

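Omni-ATAC-seq data were 4 deposited peak lists in the narrowPeak layout, 1 per library. Tools in the submitters' processing notes include MACS2 2.1.1, Bowtie2 2.3.4.1 and deepTools 3.1.2, beside bedtools, Picard, cutadapt and Trim Galore, with the builds GRCm38 and mm10 and no role for each. For Tn5 shifting and duplicates the treatment is not given in the sources used here. Each deposited peak carries a whole-number score, not used for results, a fold enrichment (a ratio to local background), and a −log10 p and −log10 q of its summit, all the authors' values within 1 library. Read totals were not analysed here, so depth is described by peak number and implied background. The implied background was solved from fold and −log10 p under a Poisson model, fold = (pileup + 1) / (background + 1), which is an assumption about the peak caller.

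Members and gene lists were chosen with earlier results of these data known. A region's height was the largest −log10 q of its peaks in a library, ranked among the 78650 shared regions. Normal scores of the ranks were fitted with limma 3.58.1 in R 4.3.3 (KO against WT, trend), with Benjamini-Hochberg adjustment over all shared regions. Single values were compared by exact permutation over libraries. Regions were assigned to the nearest protein-coding gene, V segment or antigen receptor constant gene within 100 kb, using RefSeq genes of GRCm38.p6, which here give no strand or exons. Named genes were the 20 most crowded bins, list genes with 4 or more members, the 8 tallest KO-only and WT-only regions and up to 10 calls in each direction; some genes of these lists are not reported here. The Rasgrp1 and Znrf1 groups, Ccr7, and the members called at list genes, histone genes and V segments were chosen after their values were seen. Counts of members on gene families used any overlap. Steps were tested on simulated data. Alternatives were other bin, peak, overlap and gene-end settings, fold in place of q, no trend, a replicate block, and each library left out. The share of replicate 1 minus replicate 2 deviations common to both genotypes was small (correlation 0.0308 over shared regions), so the numbers were not taken to pair the libraries.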

Additional observations from a re-analysis of the deposited data

How the results depend on the processing

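Bin borders shifted by 50 kb, and leaving out the start of chromosome 9 (chosen after seeing the data), kept every comparison they were run for within its error or 1.5 times. Dense bins and members numbered 675 and 11644, but 225 and 3744 with a −log10 q of at least 5, and 294 and 4922 when at least 0.5 of a region had to be covered in each library. Leaving out a library gave 764 to 1095 dense bins and 13250 to 19284 members. The KO minus WT share of peaks ran from −1.59 to 0.319 without each library in turn, the positive value being without WT 1. The mean percentile difference kept its sign under every setting run (−0.780 to −2.22 without each library), but the genotypes overlapped by fold (exact permutation p = 1). It was −1.35 without KO 1 and −1.53 without KO 2, where 1 library stands for KO. KO-only and WT-only regions were 2.11% and 1.72% with a −log10 q of at least 5, 2.16% and 3.31% with the same number of top peaks (102718) in each library, so their order turned, and 3.57% and 2.84% with 0.5 covered. KO-only regions were 2.56% in bins with 20 or more. Without each library, KO-only ran from 3.43% to 8.60% and WT-only from 4.004% to 9.16%, where 1 library stands for a genotype. Members with KO above and below were 14.8% and 20.002% by fold, against 18.6% and 18.1% of all shared regions. Without each library they were 30.02% to 33.1% and 36.0% to 43.0%. All shared regions then gave 35.2% to 36.4% above and 33.9% to 36.4% below. The gene-end share was 22.6% within 500 bp, 39.3% within 2 kb, 30.5% in bins with 20 or more, 34.9% with a −log10 q of at least 5, 31.5% with equal peak numbers, 32.4% with 0.5 covered, and 27.1% to 29.2% without each library. The limma calls, 34 higher and 150 lower, became 64 and 210 with the replicate block, 0 and 0 without the trend, 15 and 36 with a −log10 q of at least 5, 22 and 92 with equal peak numbers, 19 and 43 with 0.5 covered, and 1 and 40 by fold. Without each library they ran from 0 to 50 and from 3 to 120. The causes were not tested, except that stricter lists hold fewer members. With 2 libraries a genotype, unknown read depth and unlike backgrounds, small rank differences were not resolved.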
